A study of Caenorhabditis elegans with 39 samples.

Results

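The mRNAs of dissected distal gonads were compared between *prg-1* mutant and wild type *C. elegans*. It used 6 of the 39 libraries of the series, 3 from each genotype, and all 22844 annotated rows of the gonad mRNA table, of which 9943 were tested. Wild type was strain N2, and the mutants carried the *prg-1(n4357)* allele, in a strain that had been outcrossed to N2 only 1 time. Animals of both groups were gravid adults grown at 20°C on the *E. coli* strain OP50 and collected at 68 to 70 h. Gonad arms were dissected by hand over several hours, the proximal arms with the oocytes and sperm were removed, and the pooled distal arms were extracted together, so that each library was a pool of gonads and not 1 animal. RNA over 200 nt was sequenced after removal of ribosomal RNA. The 3 *mut-16(pk710)* gonad libraries of the same table, from animals of the same age and temperature, entered the fit, and their values are given beside those of *prg-1* for the genes described. The 2 comparisons with wild type share the wild type libraries, so only the direct contrast of *prg-1* with *mut-16* was tested between the mutants.

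PRG-1 is the Piwi Argonaute of the *C. elegans* germline and the binding partner of the piRNAs. A piRNA paired to a transcript recruits RNA-dependent RNA polymerases, which make secondary siRNAs called 22G-RNAs. WAGO-class Argonautes use 22G-RNAs to silence their targets, whereas CSR-1 binds 22G-RNAs of most genes expressed in the germline. MUT-16 is the scaffold of the complex that amplifies WAGO-class 22G-RNAs. The distal arm of an adult hermaphrodite holds mitotic and meiotic germ cells on their way to becoming oocytes, since sperm production ends at the last larval stage. The X chromosome is mostly silent in mitotic and early meiotic germ cells and becomes active in late meiotic prophase, when oocytes form.

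The 6 libraries were similar in depth, and the value of 1 read implied 14960810 to 17809656 reads per library. Wild type replicate 2 and *prg-1* replicate 3 stood apart from their groups in sperm mRNAs, and *prg-1* replicate 3 also in muscle mRNAs, so results that rest on them are given with and without them. Unless named otherwise, tests are limma tests on log2(value + 1), with Benjamini-Hochberg adjustment over the 9943 mRNAs, or over the 8031 small RNA features tested for 22G-RNAs. A call means an adjusted p below 0.05 and a change of at least 1.3-fold, and fold changes on this scale understate those of low genes. Log2 changes are given ± SE. The study describes its replicates as biological, but the labels do not say whether they were separate cultures, and the p-values measure only the spread between these libraries. In a pool of gonads, fewer cells of a type and less RNA per cell cannot be told apart.

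*prg-1* mRNA itself was present in the mutants, at 9973, 10505 and 11171 normalized reads in wild type replicates 1 to 3 and 4671, 5308 and 6264 in the *prg-1* libraries. All 3 mutant libraries lay below all 3 wild type libraries (log2 change -0.97 ± 0.091, limma adjusted p = 5.8e-05). The value is for the whole gene, so it checks the label without showing which part of the transcript was missing. *mut-16* mRNA was at 2069 ± 17.9 in wild type, against 1996 ± 79 in *prg-1* gonads (mean ± SD, n = 3), and *csr-1* mRNA at 11017 ± 305 and 10810.3 ± 449, neither with a call.

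Over all tested mRNAs, 2063 were higher (20.7%) and 948 lower (9.53%) in *prg-1* gonads. The higher and the lower mRNAs differed in size and starting level. The higher ones had a median log2 change of 3.22, from a median wild type mean of 9.15 normalized reads to 88.1 in *prg-1*, and 1086 of them were under 10 in wild type. The lower ones had a median log2 change of -0.87, from a median of 166 to 92.3. Of the higher mRNAs 1240 changed at least 4-fold and 751 at least 16-fold, against 73 and 7 of the lower. A row was tested only where it reached 10 in at least 3 of the 9 gonad libraries. With a wild type mean under 10, it could pass only if a mutant library reached 10. The low starting level and large changes of the higher mRNAs are therefore partly set by this filter. These differences from the lower mRNAs describe the calls and carry no support. In 5365 mRNAs (54.0%) the *prg-1* and wild type libraries did not overlap. limma-voom on the implied reads, a test chosen after seeing the data, called 934 higher and 904 lower. When *prg-1* was set directly against *mut-16*, 286 of the 2063 exceeded their *mut-16* level and 77 were below it, whereas of the 948 lower mRNAs 595 were below and 8 above. Over all tested mRNAs, 5.8% were above and 9.58% below. The 2063 and the 948 were chosen by the same *prg-1* libraries, which favours these directions. Their counts against *mut-16* therefore describe them and carry no support.

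**Figure D1:**
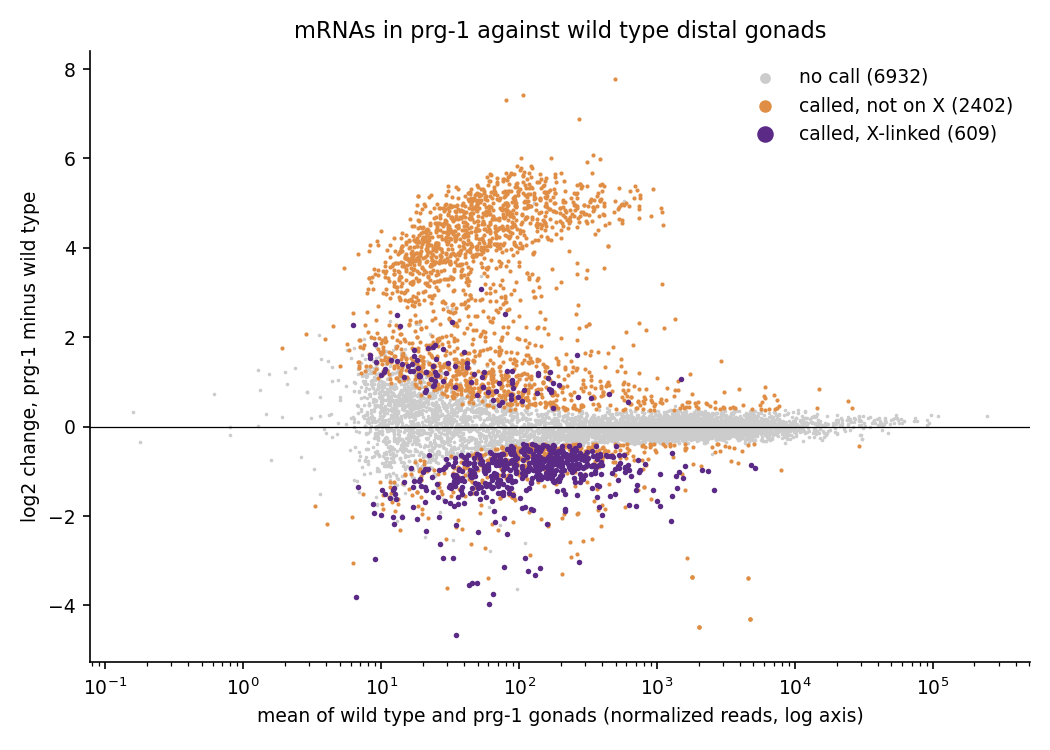
Each point is 1 of 9943 tested mRNAs, with the mean of the wild type and *prg-1* groups on the x axis (normalized reads, log axis) and the log2 change in *prg-1* on the y axis. Called mRNAs at low mean level lie mostly above 0, and of the 609 called X-linked mRNAs (purple) 516 lie below 0 and 93 above.

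Genes of sperm were among the mRNAs with the largest increases. The major sperm proteins (MSPs) are small cytoskeletal proteins that drive the crawling of nematode sperm and also signal to the oocyte, and the genome holds many near-identical MSP genes. Their summed mRNA, over all 35 annotated members, was at 294, 1326 and 231 normalized reads in wild type replicates 1 to 3 and at 6314, 12444 and 32147 in *prg-1* replicates 1 to 3. The groups did not overlap, wild type replicate 2 was the highest of its group, and *prg-1* replicate 3 was the highest of all. The *mut-16* libraries were at 5722, 8993 and 3644, 1 inside and 2 below the *prg-1* range. As a share of all values, MSP mRNA made up 0.0398%, 0.0768% and 0.191% in the *prg-1* libraries and at most 0.00835% in wild type. The log2 ratio of the group means was 4.78, and it was 6.02 without wild type replicate 2 and 3.93 without *prg-1* replicate 3.

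Of the 35 MSP genes 30 passed the filter on low values, and all 30 were called higher, with a median log2 change of 4.85 against 0.0071 for all mRNAs tested. Members that passed only through the mutant libraries, where they are high, had to differ, so this count and median describe the list and carry no support. Without the filter 29 of all 35 were called higher. The MSP genes share reads, so the split among them is uncertain. *msp-65* was at 0, 15.2 and 0 in wild type, against 68.1, 166 and 370.5 in *prg-1* (log2 change 6.01 ± 1.11, limma adjusted p = 0.0041). *msp-51* was at 17.5, 68.7 and 0 in wild type, against 291, 525 and 1131 (log2 change 5.68 ± 1.49, limma adjusted p = 0.02), and its adjusted p was 0.0505 without *prg-1* replicate 2 and 0.082 without *prg-1* replicate 3. In both genes the lowest *prg-1* library lay above the highest wild type library. None of the 30 differed between *prg-1* and *mut-16* by limma, 0 of them had an unadjusted p under 0.05, and limma-voom called 0.

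Other sperm families followed the same libraries. The list of *ssp*, *ssq*, *nspd*, *spch* and related genes, which encode small sperm-specific proteins and the sperm chromatin proteins, had 38 members, 33 of them tested, 32 higher and a median log2 change of 4.99. Without the filter 32 were also higher, and *nspd-8*, *nspd-11* and *nspd-12* were listed at 0 in all 6 libraries. *spch-3*, a small basic protein of sperm chromatin, was at 0, 36.6 and 0 in wild type, against 165, 353 and 1075 in *prg-1* (log2 change 6.89 ± 1.48, limma adjusted p = 0.0088). It was listed at 0 outside wild type replicate 2 in that group, and the groups did not overlap. *ssp-28* was the member with no call, at 15 ± 6.02 and 9.96 ± 1.86 (mean ± SD, n = 3).

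Regulators and enzymes of spermatogenesis changed in part. Of 37 genes in this list, 33 were tested, 26 were higher (78.8%, against 20.7% of all mRNAs tested), none was lower and the median log2 change was 3.98. As with the MSP genes, members that passed the filter only through the mutant libraries had to differ, so this count and median carry no support. Without the filter 27 were higher. *alg-3* and *alg-4* encode the Argonautes that bind 26G-RNAs during spermatogenesis. *alg-3* mRNA was at 9.74, 65.1 and 3.25 in wild type, against 276, 491 and 1646 in *prg-1* (log2 change 5.39 ± 1.09, limma adjusted p = 0.0068). *alg-4* mRNA was at 10.4, 104 and 13.6 in wild type, against 357, 650.2 and 2425 (log2 change 5.0 ± 1.03, limma adjusted p = 0.0075). Both were highest in *prg-1* replicate 3, and in neither did the groups overlap. The sperm phosphatases *gsp-3* and *gsp-4* were higher by 4.8 and 4.39 on the log2 scale (adjusted p = 0.0045 and 0.0046, limma), and *spe-11*, a sperm factor needed by the embryo, by 5.23 (adjusted p = 0.0025). Of the 7 tested members with no call, 2 are described here, both well above 0 in wild type. *spe-44*, the transcription factor that drives sperm gene expression, was at 529, 539.7 and 525 in wild type, against 578, 610.2 and 699 in *prg-1*, a log2 change of 0.24 that was below the fold threshold (limma adjusted p = 0.026). *zipt-7.1*, a zinc transporter of sperm activation, was at 2609 ± 76.5 and 3243 ± 76.2 (log2 change 0.31, also below the threshold).

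Sperm calls rest on wide spread between libraries. With wild type replicate 2 and *prg-1* replicate 3 both left out, 28 MSP genes, 32 of the other families and 21 spermatogenesis genes were higher. limma-voom on implied reads called 0, 4 and 4 of them, with adjusted p values from 0.111 to 0.251 for the sperm genes named here. The log2 changes of those genes stayed above 0, from 4.36 to 7.39. Of the genes described further on, it also ended the calls of *wago-10*, *his-70*, *rpl-42*, *fbxa-224*, *R09E10.2*, *F47B3.1*, *phyh-1*, *cav-1* and *ppw-2* (adjusted p from 0.0607 to 0.214).

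The genes that set germline sex were nearly all without a call. Of 29 tested members of this list, 1 was higher (3.45%, against 20.7% of all mRNAs tested), none lower (against 9.53%), and the median log2 change was -0.055. Among autosomal mRNAs with a mean above 1000 normalized reads, only 1.75% were higher and 1.2% lower. Few calls among abundant members are therefore not particular to this list. The member that rose was *fog-3*, which is required for germ cells to enter spermatogenesis, at 15.6, 10.7 and 9.72 in wild type, against 70.8, 84.6 and 119.4 in *prg-1* (log2 change 2.83 ± 0.27, limma adjusted p = 4.6e-05). Its lowest *prg-1* library was above every wild type library, and it was highest in *prg-1* replicate 3. *fog-1*, which acts with *fog-3*, was at 330.3 ± 23.8 in wild type, against 316 ± 14.6 in *prg-1*. *fem-3*, a masculinizing gene, was at 1593 ± 44.4 and 1849 ± 229.7, and *tra-2*, the feminizing membrane protein upstream of it, at 2555 ± 72.7 and 2334 ± 121 (mean ± SD, n = 3), none with a call.

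**Figure D2:**
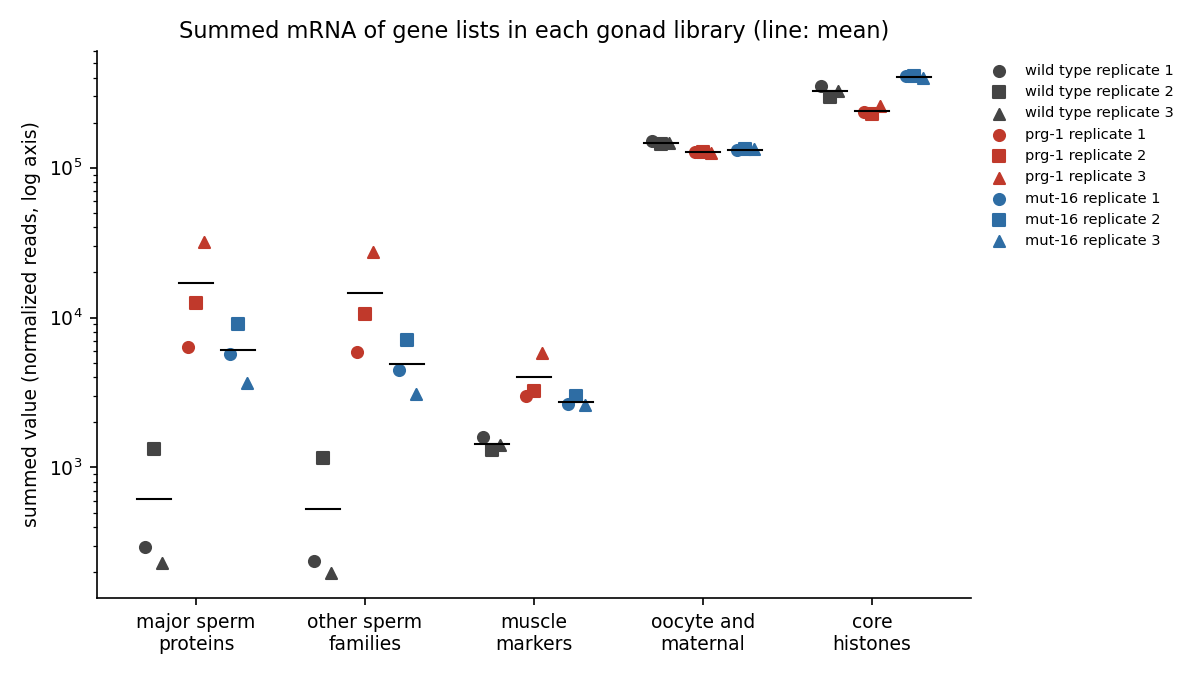
Summed mRNA of 5 gene lists in each gonad library (normalized reads, log axis), with a symbol per replicate number and a line at the group mean. MSP mRNA in the 3 *prg-1* libraries (6314 to 32147) lies above that in the 3 wild type libraries (231 to 1326), and muscle mRNA is likewise apart (3011 to 5834 against 1299 to 1589).

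Muscle markers were also higher. Their sum over 16 genes was at 1589, 1299 and 1409 in wild type, 3011, 3253 and 5834 in *prg-1* and 2656, 2977 and 2609 in *mut-16*, again highest in *prg-1* replicate 3. Wild type replicate 2, the highest of its group in MSP mRNA, was the lowest in muscle mRNA. Of 14 muscle markers tested, 12 were higher (85.7%, against 20.7% of all mRNAs tested), and 10 were with *prg-1* replicate 3 left out. *unc-89*, a giant protein of the muscle M-line, was at 102.3, 122 and 83.1 in wild type, against 378, 384 and 859.6 in *prg-1* (log2 change 2.29 ± 0.34, limma adjusted p = 0.0014). *myo-3*, the body wall myosin that the gonad sheath also uses, changed by 2.08 (adjusted p = 0.0013) and *pat-10*, a troponin C, by 1.79 (adjusted p = 0.00066). The pharyngeal myosins *myo-1* and *myo-2* were under the filter.

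Intestine, neuron and cuticle markers were low, and somatic gonad markers were abundant in both groups. Intestine markers summed to 132 to 624 in wild type and 355 to 718 in *prg-1*, and none of the 7 tested of 18 had a call by limma or limma-voom, nor an unadjusted p under 0.05 (0 genes). The most abundant of them, *vit-6*, a yolk protein, was at 142, 96.3 and 27.6 in wild type, against 185, 122 and 134 in *prg-1*. Neuron markers summed to 109 to 174 and 186 to 227, with no call among 4 tested of 13 by limma (1 had an unadjusted p under 0.05, and limma-voom called 1) and *sbt-1* at 0 in all 6 libraries. Cuticle and epidermis markers summed to 251 to 575 and 544 to 822, with 2 of 3 tested higher, among them *col-19* (log2 change 1.1, adjusted p = 0.043), a call lost without any 1 of wild type replicates 2 and 3 or of the *prg-1* replicates. Somatic gonad markers summed to 15600 to 16956 and 15785 to 19904, and 2 of 7 tested of 11 rose (28.6%, against 20.7% of all mRNAs tested). They were *gon-1*, a secreted protease of gonad shape (log2 change 1.61 ± 0.18, limma adjusted p = 0.00012), and *inx-9*, a gap junction protein of the sheath (log2 change 0.67 ± 0.11, limma adjusted p = 0.0016). The part of these tissues in the sperm results was not tested.

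The lower mRNAs were concentrated on the X chromosome. X-linked genes were 9.71% of those tested and 54.4% of those lower. Of 965 X-linked mRNAs tested, 516 were lower (53.5%) and 93 higher (9.64%), against 416 lower (4.76%) and 1935 higher (22.2%) of 8732 autosomal mRNAs. The median log2 change was -0.65 on X and between -0.0079 and 0.066 on each of the autosomes. Below a mean of 100 normalized reads, 218 of 613 X-linked mRNAs were lower (35.6%), compared with 5.67% of 2856 autosomal ones. Among X-linked mRNAs with a mean of 100 to 1000 normalized reads, 283 of 332 were lower (85.2%), compared with 212 of 2387 autosomal mRNAs at that level (8.88%). Above 1000, 15 of 20 X-linked mRNAs were lower, and 42 of 3489 autosomal ones. Without the filter on low values the share lower was 23.8% on X (518 of 2180) and 2.79% on autosomes (408 of 14630).

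The X-linked share of all values was 1.17%, 1.14% and 1.11% in the wild type libraries and 0.735%, 0.689% and 0.687% in the *prg-1* libraries. The groups did not overlap, and with 3 libraries a side an exact permutation test cannot give a p below 0.1. The *mut-16* libraries were at 1.14%, 1.03% and 1.04%, between the other groups in mean and overlapping wild type. Tested directly, 456 X-linked mRNAs were below their *mut-16* level in *prg-1* (47.3%) and 6 higher, compared with 452 lower of the autosomal mRNAs (5.18%). The X-linked count held with wild type replicate 2 and *prg-1* replicate 3 left out (471) and with limma-voom (497).

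**Figure D3:**
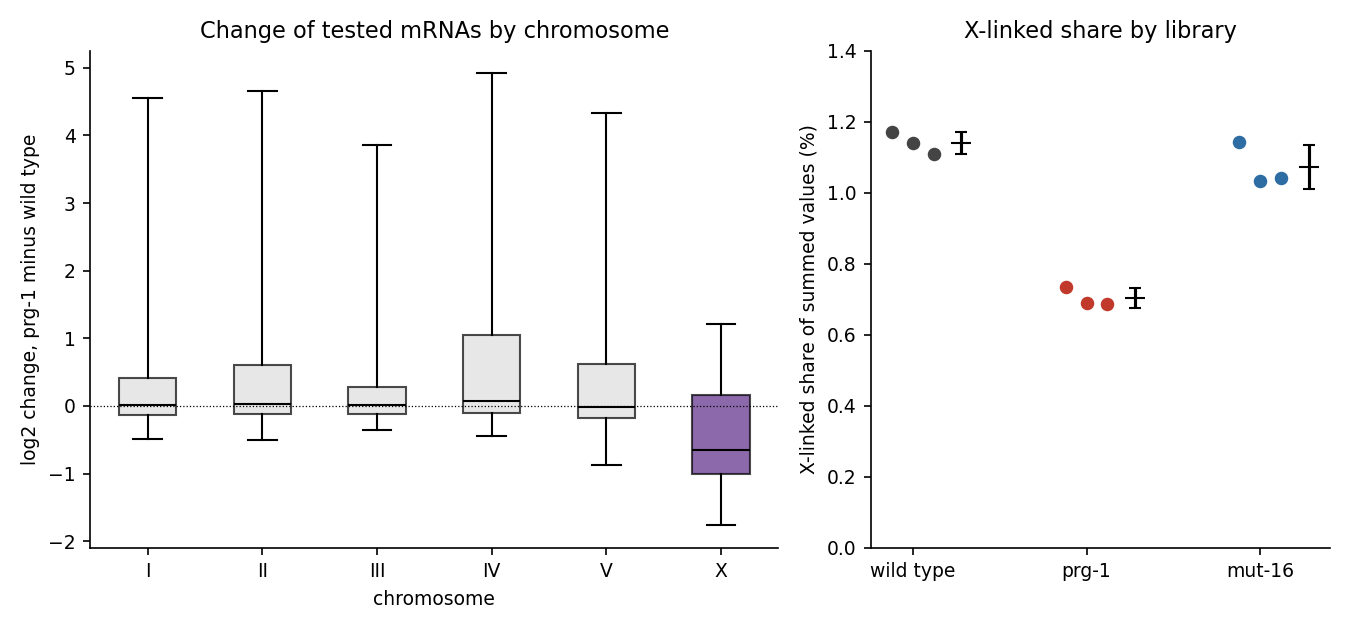
Left, log2 change of the tested mRNAs of each chromosome (box, quartiles; line, median; whiskers, 5th to 95th percentile). Right, X-linked share of all values in each library (points) with the group mean ± SD, at 1.11% to 1.17% in wild type and 0.687% to 0.735% in *prg-1*.

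Over all gene lists other than core histones, F-box genes, somatic markers, pseudogenes and transposons, 444 genes were tested, heat shock, ribosomal protein and variant histone genes included. Among the 16 of them on X, 9 were lower and 1 higher, beside 53.5% and 9.64% of all X-linked mRNAs tested. Among the 428 on autosomes, 7 were lower and 107 higher, beside 4.76% and 22.2% of all autosomal mRNAs tested. These counts depend on which lists are included. All tested sperm genes were autosomal, and the 3 sperm lists had 30, 32 and 26 higher. The core histones left out had 12 lower on chromosome II and 19 on chromosome V. *meg-1* and *meg-3* encode disordered proteins that organize P granules in the embryo. *meg-1* mRNA was at 1997, 1913 and 1841 in wild type, against 633, 619 and 715 in *prg-1* (log2 change -1.55 ± 0.07, limma adjusted p = 2.4e-07), and at 1617, 1413 and 1514 in *mut-16*. *meg-3* was at 1349, 1476 and 1461 in wild type, 658, 691 and 692 in *prg-1* and 1362, 1337 and 1341 in *mut-16* (log2 change -1.07 ± 0.051, limma adjusted p = 3.1e-07). For both, every *prg-1* library lay below every library of wild type and *mut-16*, and the contrast with *mut-16* was -1.21 and -0.98 (adjusted p = 1e-06 and 5.6e-07).

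Other X-linked members were lower by similar amounts. *meg-2* changed by -0.85 and *mes-1*, a kinase-like protein of germline polarity, by -0.69 (adjusted p = 0.0035 and 0.00094, limma). *nrde-3*, the Argonaute of somatic nuclear RNAi, was at 527 ± 25.9 in wild type, against 252 ± 22 in *prg-1* (log2 change -1.06, limma adjusted p = 1.9e-05). *alg-1*, a miRNA Argonaute, changed by -1.35, *lsd-1*, a histone demethylase, by -0.67, and *hpl-1*, an HP1 protein, by -0.8 (adjusted p = 0.00064, 0.0044 and 0.0094). *hpl-1* is outside the rule for named genes, and its call was lost with wild type replicate 2 and *prg-1* replicate 3 both left out. *hsp-3*, an ER chaperone of the BiP family, was at 2731, 2796 and 2828 in wild type, against 1343, 1215 and 1723 (log2 change -0.98, limma adjusted p = 0.00017).

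The most abundant lower mRNAs of X were *F23A7.8* and *mrp-4*. *mrp-4*, an ABC transporter, was at 6271, 6008 and 6189 in wild type, 3642, 3445 and 3059 in *prg-1* and 6284, 6132 and 6234 in *mut-16* (log2 change -0.87, limma adjusted p = 3.1e-06). *F23A7.8* was at 6730.0 ± 875 in wild type, 3516 ± 382 in *prg-1* and 4046 ± 482 in *mut-16*, and the mutants had no call between them (adjusted p = 0.25). *chkr-2* changed more, at 231, 229 and 246 in wild type, 22.1, 15.1 and 34.4 in *prg-1* and 17.5, 27.9 and 28.1 in *mut-16* (log2 change -3.33 ± 0.29, limma adjusted p = 2.3e-05). Both mutants were low, and their contrast was -0.081 (adjusted p = 0.85). *sdc-2*, the switch of X dosage compensation and itself X-linked, was chosen after its values were seen. It was at 447, 373 and 355 in wild type, against 154, 118 and 138 (log2 change -1.52, adjusted p = 1e-05).

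Of the 93 higher X-linked mRNAs, the most abundant was *let-2*, a type IV collagen of basement membranes, at 837, 934 and 1029 in wild type, against 1477, 1640.5 and 3057 in *prg-1* (log2 change 1.07, adjusted p = 0.014), chosen after its values were seen.

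22G-RNAs of the same genes were measured in 3 gonad small RNA libraries of each genotype, a readout that the mRNA comparison does not use. Over all tested mRNAs with a 22G-RNA locus, 28.4% had lower and 19.5% higher 22G-RNAs in *prg-1*. Of WAGO-class loci, 958 of 1326 were lower (72.2%), and of those on X 180 of 206 (87.4%). Of CSR-1-class loci, 415 of 3510 were lower (11.8%), and of those on X 67 of 135 (49.6%). For the 516 lower X-linked mRNAs, the 22G-RNAs of 117 of 128 WAGO-class loci and 63 of 121 CSR-1-class loci were lower (91.4% and 52.1%), near the shares of all tested X-linked loci. At *mrp-4*, a CSR-1-class locus, 22G-RNAs were at 2420.2 ± 70.4 in wild type, against 636 ± 55.2 in *prg-1* (log2 change -1.93, limma adjusted p = 1.1e-08). At *chkr-2* the 22G-RNAs were instead higher, at 743 ± 59.2 and 1112 ± 150.5 (log2 change 0.58, adjusted p = 0.0023).

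Oocyte mRNAs were lower as a sum, by less than the X-linked share. The 27 oocyte and maternal RNA genes summed to 150892, 143777 and 145978 in wild type, 127543, 127640.0 and 125550.0 in *prg-1* and 132124, 132404 and 132319 in *mut-16*, with no overlap between *prg-1* and the other groups. Their median log2 change was -0.20, 24 of 27 were below 0, 3 were lower (3 of 27, near the 9.53% of all mRNAs tested) and 1 higher. At a mean above 1000 normalized reads, 1.2% of autosomal mRNAs were lower. *rme-2*, the yolk receptor, had a log2 change of -0.43 (limma adjusted p = 5.2e-05). *lin-41*, a regulator of oocyte growth, was at 4064, 3684 and 3731 in wild type, against 3104, 2842 and 2438 (log2 change -0.46, limma adjusted p = 0.0018), and *nos-2*, a Nanos protein made for the embryo, at 3169, 3111 and 2871 in wild type, against 2725, 2282 and 2054 (log2 change -0.38, limma adjusted p = 0.0081). These changes were near the fold threshold, and the number lower was 1 without *prg-1* replicate 3, 5 without wild type replicate 2 or 3, and 6 without *prg-1* replicate 1. It was 6 with library totals made equal, 7 with TMM scaling and 17 with no fold threshold. The call of *nos-2* was lost without wild type replicate 1 or 2 or *prg-1* replicate 2 or 3, and that of *lin-41* without *prg-1* replicate 3. *cav-1*, a caveolin of the oocyte surface, was called higher (log2 change 0.4, adjusted p = 0.04), but not without wild type replicate 1, 2 or 3 or *prg-1* replicate 1 or 2. The part of these cells in the X-linked result was not tested.

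Eggshell genes had 1 call (5.56%, against 30.3% of all mRNAs tested). Of autosomal mRNAs with a mean above 1000 normalized reads, 1.75% were higher and 1.2% lower, so few calls are not particular to this list. Of 18 tested, 17 had no call, among them *cbd-1*, a chitin-binding component of the vitelline layer, at 49329.9 ± 1924 in wild type, against 44657 ± 2886 in *prg-1* (mean ± SD, n = 3). The exception was *egg-5*, a pseudophosphatase of the egg-to-embryo transition, at 10973, 10952 and 10215 in wild type, 20433, 20033 and 17687 in *prg-1* and 9293, 9173 and 8872 in *mut-16* (log2 change 0.85 ± 0.059, limma adjusted p = 4.2e-06).

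*egg-5* rose together with its neighbours on chromosome I. It lay in a run of 7 consecutive tested genes that were all higher, *gclm-1*, *R12E2.8*, *egg-5*, *R12E2.11*, *mrps-6*, *rpn-8* and *R12E2.13*, with log2 changes from 0.42 to 1.86. *rpn-8*, a subunit of the proteasome lid, was at 4905, 4577 and 4785 in wild type, 7585, 7309 and 7239.8 in *prg-1* and 4677, 4834 and 4835 in *mut-16* (log2 change 0.63 ± 0.04, limma adjusted p = 2.3e-06). *mrps-6*, a mitochondrial ribosomal protein, was at 1414, 1309 and 1289 in wild type, 2032, 1983 and 1856 in *prg-1* and 1295, 1367 and 1308 in *mut-16* (log2 change 0.55, adjusted p = 5.6e-05). In *mut-16* all 7 were near wild type, and each was above its *mut-16* level in *prg-1* (adjusted p from 7.1e-07 to 0.0064). The run, and its members other than *egg-5*, were chosen after their values were seen.

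Core histone mRNAs fell, but not all of them. Core histones package DNA, and their *C. elegans* genes are found in clusters on several chromosomes. Of 63 tested genes, 33 were lower (52.4%, against 9.53% of all mRNAs tested), 4 higher and 26 had no call. Their median log2 change was -0.84. By family, 10 of 17 H2A, 9 of 16 H2B, 6 of 14 H3 and 8 of 16 H4 genes were lower. Their sum was at 348649, 297942 and 326225 in wild type, against 233803, 229154 and 258757 in *prg-1*, and the groups did not overlap. In *mut-16* it was 409140.0, 411677 and 397372, and 54 of the 63 were below their *mut-16* level in *prg-1*. The genes are near identical in sequence within a family, and several share 1 value in each library (43 distinct sets of values among 63 genes), so the split of reads among copies, and with it the value of a single gene, is uncertain.

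The chromosome of the cluster separated the changes. All 12 histone genes of chromosome II were lower, with log2 changes from -4.48 to -2.95. Their sum was at 68935, 62829.8 and 71654 in wild type, 4279, 4751 and 6321 in *prg-1* and 47257, 47417 and 49772 in *mut-16*, a ratio of wild type to *prg-1* means of 13.3. The 22 genes of chromosome IV summed to 254259, 213739 and 232704 in wild type, against 214726, 210988 and 238520.0 in *prg-1*, with overlapping groups, none lower and 3 higher. On chromosome V 19 of 25 were lower and 1 higher, and the sum was at 15703, 13536 and 13442 in wild type, against 8053, 7020.3 and 6959 in *prg-1*. Both tested histone genes of X were lower and neither of the 2 on chromosome I had a call.

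On chromosome II the H3 genes *his-9*, *his-13* and *his-25* had the same value, at 3798, 3696 and 4061 in wild type, against 132, 169 and 224.4 in *prg-1* (log2 change -4.48 ± 0.16, limma adjusted p = 2.9e-07). The H4 genes *his-10*, *his-14* and *his-26* were each at 9299, 8289 and 9578 in wild type, against 421, 415 and 546 (log2 change -4.3 ± 0.11, limma adjusted p = 2.3e-08). Every *prg-1* library was more than 10 times lower than the lowest wild type library in both sets. The H2A genes *his-12* and *his-43* changed by -3.39 and the H2B genes *his-11*, *his-15* and *his-44* by -3.37 (adjusted p = 0.00047 and 4.8e-06). *his-16* was the most variable, at 3971, 2393 and 1912 in wild type, against 944, 533 and 77.3 (log2 change -2.95, adjusted p = 0.031), and its call was lost without wild type replicate 1 or 2, and without wild type replicate 2 and *prg-1* replicate 3 together.

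The abundant histone genes of chromosome IV had no call. *his-64*, an H4 gene and the most abundant histone mRNA, was at 46566, 40021 and 44489 in wild type, against 42341, 38740.1 and 42653 in *prg-1* (log2 change -0.082, limma adjusted p = 0.35). *his-45*, an H3 gene, was at 16713, 14613 and 15232 in wild type, against 14081, 14575 and 16279 (log2 change -0.052, adjusted p = 0.57). Both were below their *mut-16* levels of 66893 ± 1583 and 22208 ± 963 (adjusted p = 4.7e-05 and 0.00024). *his-32* and the pair *his-29* and *his-34* on the same chromosome were low and higher in *prg-1*, by 1.19 and 0.65 (adjusted p = 0.00043 and 0.0044).

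**Figure D4:**
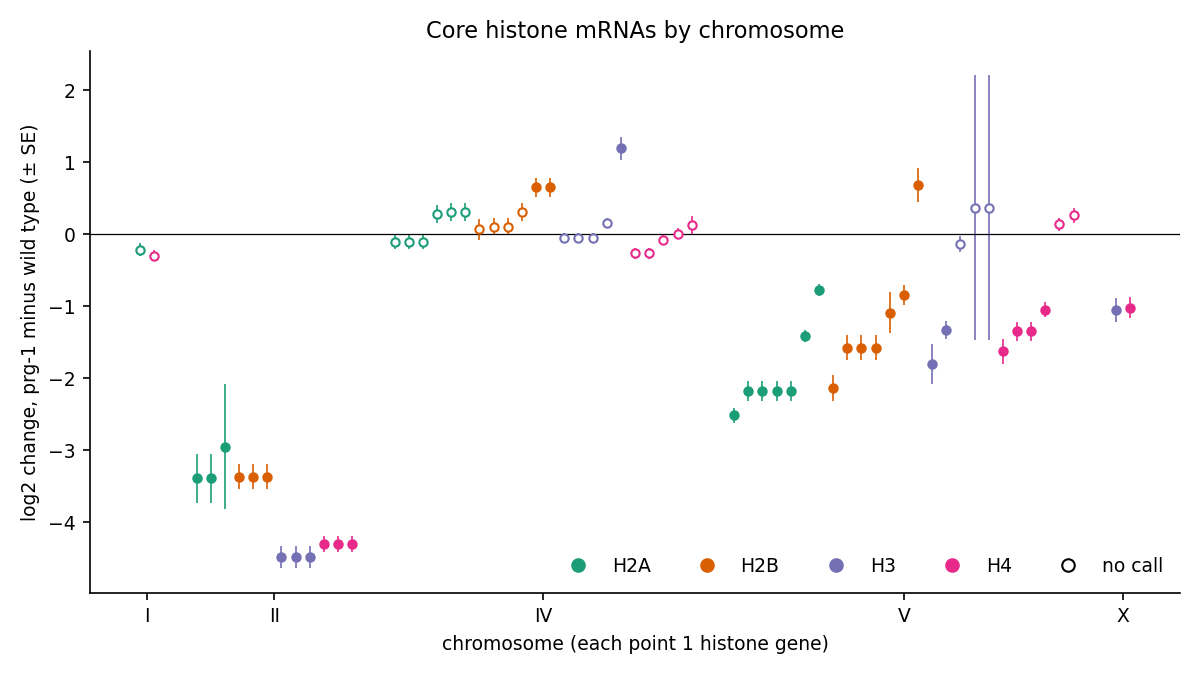
Log2 change ± SE of each of the 63 tested core histone genes, grouped by chromosome and coloured by family, with open symbols for genes without a call. The 12 genes of chromosome II lie between -4.48 and -2.95, and those of chromosome IV between -0.27 and 1.19.

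22G-RNAs were assigned to few histone genes. Of the 63, 10 had a WAGO-class locus tested and none a CSR-1-class locus, and the 22G-RNAs of 9 rose. At *his-35*, an H2A gene of chromosome V that was chosen after its values were seen, they were at 456 ± 118.9 in wild type, against 7826 ± 621 in *prg-1* (log2 change 4.13, limma adjusted p = 2e-05), while its mRNA fell from 395 ± 14.6 to 231 ± 24 (log2 change -0.78, adjusted p = 0.00013). At *his-18*, an H4 gene, they were at 55.8 ± 9.72 and 149 ± 19.1 (log2 change 1.4, adjusted p = 0.0021). None of the 12 genes of chromosome II was among the 10.

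No variant or linker histone was called lower. Of 14 tested, 3 were higher (21.4%, near the 20.7% of all mRNAs tested) and none lower. With 14 genes, none lower cannot be set apart from the 9.53% of all mRNAs tested. *his-70*, an H3.3-like gene, was at 2.92, 10.7 and 0 in wild type, against 39.5, 71.5 and 264 (log2 change 4.68 ± 0.96, limma adjusted p = 0.0052), in the libraries that were also high in sperm mRNA. *hil-8*, an H1-like gene, was at 34, 27.7 and 31.3 in wild type, against 104, 105.7 and 95.5 (log2 change 1.69 ± 0.16, limma adjusted p = 4.9e-05), even across the 3 *prg-1* libraries. *hil-5*, an H1 gene, changed by 0.46 (adjusted p = 0.011), which fell below the fold threshold without *prg-1* replicate 3. *htz-1*, the H2A.Z gene, was at 1624 ± 186 and 1692 ± 143, and *hcp-3*, the centromeric H3, at 4321 ± 98.3 and 4203 ± 303 (mean ± SD, n = 3).

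Calls among the piRNA factors and Argonautes were about as frequent as among all mRNAs tested, of which 30.3% had a call. At a mean above 1000 normalized reads calls were rarer, with 1.75% of autosomal mRNAs higher and 1.2% lower. Of 19 piRNA factors, 3 were higher and 2 lower (26.3% called), *prg-1* itself among the lower. *parn-1*, which trims piRNA precursors, was higher by 1.46 on the log2 scale, at 4050.4, 4179 and 4260.5 in *mut-16*, close to its *prg-1* values (4368, 4366 and 4103). *pid-4*, a germ granule protein of the piRNA pathway, was at 1299.8, 1402 and 1391 in wild type, against 1765, 1853 and 1979 (log2 change 0.45, limma adjusted p = 0.0002). *pid-3*, a subunit of the complex that processes piRNA precursors, was lower, at 4243, 4288 and 4152 in wild type, against 3101, 2900.1 and 3152 (log2 change -0.47, limma adjusted p = 0.00012), and also lower than in *mut-16* (adjusted p = 0.00028).

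Of 16 Argonaute genes tested, 4 were higher and 2 lower (37.5% called), the lower ones being *alg-1* and *nrde-3*. *ppw-1*, a WAGO-class Argonaute needed for germline RNAi, was at 3969.7, 4187 and 4521 in wild type, 7129, 7537 and 8935 in *prg-1* and 4117, 4129 and 4525 in *mut-16* (log2 change 0.89 ± 0.083, limma adjusted p = 5.1e-05). Its *prg-1* libraries did not overlap either other group. *ppw-2* was at 5800.1, 6454 and 7038 in wild type, against 7017, 8655 and 11276 with overlapping groups, and its call (adjusted p = 0.044) was lost without wild type replicate 1, 2 or 3 or *prg-1* replicate 2 or 3. *wago-10* was low in wild type and followed the sperm genes, at 0.972, 8.03 and 1.08 in wild type, against 14.7, 46.3 and 191.9 (adjusted p = 0.0067). *wago-1*, the most abundant, was at 30873 ± 903 and 32502 ± 2268 with no call.

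Of 28 genes of 22G-RNA amplification, 1 had a call (3.57%, against 30.3% of all mRNAs tested). Calls were also rare among autosomal mRNAs with a mean above 1000 normalized reads (1.75% higher, 1.2% lower). *rde-11*, a factor of exogenous RNAi, was at 639.7, 646 and 646 in wild type, against 1027, 968 and 997 in *prg-1* (log2 change 0.63 ± 0.05, limma adjusted p = 1.1e-05), and its 22G-RNAs were at 1732 ± 129 and 307 ± 40.9 (log2 change -2.5, adjusted p = 8.6e-08). Of 17 nuclear RNAi and H3K9 methylation genes, only the X-linked *lsd-1* and *hpl-1* had a call, both lower (11.8%, near the 9.53% of all mRNAs tested). Among 18 P granule genes, 5 were lower (27.8%, against 9.53% of all mRNAs tested), 4 of them X-linked, and none was higher. The autosomal one, named after its values were seen, was *glh-2*, a Vasa-related helicase, at 2947, 3027 and 3424 in wild type, against 2175, 2042 and 2069 (log2 change -0.58 ± 0.063, limma adjusted p = 0.00011). Its paralog *glh-1* was at 8112, 9006 and 10311 in wild type, against 10908, 11315 and 13245, a log2 change of 0.37 with no call (adjusted p = 0.035), and it was called higher without wild type replicate 3 or *prg-1* replicate 1. *pgl-1* was at 12145 ± 650.3 and 13631 ± 1226 (mean ± SD, n = 3).

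Genes of meiosis and of the mitotic zone had few calls. None of 43 tested genes of meiotic chromosome pairing, axis and recombination had a call by limma, compared with 30.3% of all mRNAs tested, and their sum was at 95361, 97905 and 99556 in wild type, against 96188, 97222 and 96851 in *prg-1*. limma-voom also called 0, and 15 had an unadjusted p under 0.05 by either test. Calls were also few among all autosomal mRNAs with a mean above 1000 normalized reads, of which 1.75% were higher and 1.2% lower. Of 23 stem cell and replication genes, 1 was lower, *sygl-1*, a target of germline Notch signalling, at 144, 128 and 148 in wild type, against 109, 94.7 and 85.9 (log2 change -0.54, limma adjusted p = 0.013), a call lost without wild type replicate 3. *glp-1*, the germline Notch receptor, was at 8593 ± 155 and 8428 ± 292. In this list 22 of 23 members had a log2 change below 0, the median was -0.14, and the sum was at 116447, 115730.0 and 116292 in wild type, against 108159, 106296 and 102630.0 in *prg-1*.

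Of 78 ribosomal protein genes 5 were called higher (6.41%, against 20.7% of all mRNAs tested) and none lower. At a mean above 1000 normalized reads, 1.75% of autosomal mRNAs were higher, so the 20.7% is no measure for abundant genes. The list had a median log2 change of 0.15 and 76 members above 0. *rps-20* was at 20083, 18956 and 19322 in wild type, against 28291, 28829 and 30346 in *prg-1* (log2 change 0.58 ± 0.067, limma adjusted p = 0.00017), and *rpl-11.1*, the most abundant member, at 87891 ± 2442 and 106071 ± 1339, below the threshold. *rpl-42* was at 1.94, 0.892 and 0 in wild type, against 30.3, 54.4 and 168, in the pattern of the sperm genes. Among the 6 most abundant higher mRNAs were the nucleolar genes *nucl-1*, *nol-58* and *fib-1*, which encode nucleolin, a box C/D snoRNP protein and fibrillarin. *fib-1* was at 5511, 5887 and 6211 in wild type, against 7503, 8555 and 10868 (log2 change 0.6, limma adjusted p = 0.0077). *nucl-1* was at 20242, 22793 and 23864 in wild type, against 25382, 29101 and 34765 (log2 change 0.41, adjusted p = 0.015) and *nol-58* at 11201, 12493 and 12917 in wild type, against 13657, 16448 and 19469 (log2 change 0.42, adjusted p = 0.017). The groups did not overlap in any of the 3, but the last 2 lost their call without wild type replicate 1 or *prg-1* replicate 3.

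F-box, MATH and BATH genes form large families of substrate adaptors of ubiquitin ligases. Of 477 members 135 were tested, 30 were higher (22.2%) and 20 lower (14.8%), near the 20.7% and 9.53% of all mRNAs tested, with a median log2 change of 0.11, and 125 members were at 0 in all 6 libraries. *bath-45*, a known target of piRNA silencing, was even across the *prg-1* libraries, at 240.1, 194 and 206 in wild type, 2047, 1939 and 1892 in *prg-1* and 2205, 2261 and 2365 in *mut-16*. *fbxa-224* rose with the sperm genes, from 0.972, 3.57 and 0 to 38.6, 86.6 and 235 (adjusted p = 0.00031). *fbxa-192* went down, at 454, 405 and 405 in wild type, 44.1, 50.3 and 74.5 in *prg-1* and 888, 938 and 979.7 in *mut-16* (log2 change -2.91 ± 0.16, limma adjusted p = 9.2e-07). From low to high, the order of the groups was *prg-1*, wild type and *mut-16*, with no overlap. Its 22G-RNAs were at 6390.2 ± 308 and 6316 ± 669.9, without a call. *fbxa-193*, an annotated pseudogene, was at 269, 339.8 and 376 in wild type, against 82.8, 69.5 and 82.1 (log2 change -2.05 ± 0.13, limma adjusted p = 2e-06). *fbxa-106* mRNA was at 338, 343 and 348 in wild type, against 187, 163 and 159 (log2 change -1.02, adjusted p = 1.1e-05), while its 22G-RNAs were at 143 ± 38.3 and 1434 ± 57.6 (log2 change 3.35, adjusted p = 1.9e-07).

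Of 886 annotated transposon loci 123 were tested, and 21 were higher (17.1%, near the 20.7% of all mRNAs tested) and 4 lower (3.25%). Their sum was at 6815, 6735 and 7177 in wild type, 7056, 7230.1 and 8065 in *prg-1* and 13853, 13848 and 13927 in *mut-16*. The number higher was 7 without *prg-1* replicate 2 and 11 without *prg-1* replicate 3. The locus Y60A3A.29 was listed at 0 in all wild type and *mut-16* libraries and at 169, 176 and 134 in *prg-1* (limma adjusted p = 4.2e-06). Of 1441 rows labelled as pseudogenes in the deposited values 231 were tested, and 72 were higher (31.2%) and 31 lower (13.4%), against 20.7% and 9.53% of all mRNAs tested. RefSeq lists some of these rows as protein coding, so the counts are not of pseudogenes alone. Among them were *rpl-41.1*, *M176.9* and *T28B8.4*, all higher, and *rpl-41.2* with no call. The pseudogene *Y102A5C.6* was at 429, 462 and 498 in wild type, 50.6, 69.5 and 72.6 in *prg-1* and 867, 951 and 905 in *mut-16* (log2 change -2.85 ± 0.13, limma adjusted p = 2.4e-07).

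The mRNAs with log2 increases above 6 also included *R09E10.2*, *F47B3.1* and *phyh-1*, which followed the libraries high in sperm mRNA. *R09E10.2* was at 4.86, 7.14 and 0 in wild type, against 368, 741 and 1877 in *prg-1* (log2 change 7.79 ± 0.94, limma adjusted p = 0.00098). *F47B3.1* was listed at 0 in all wild type libraries and at 89.2, 134 and 413 in *prg-1* and 20.6, 88.9 and 42.7 in *mut-16*. *phyh-1*, which encodes a protein of the phytanoyl-CoA hydroxylase family, was at 8.75, 15.2 and 2.16 in wild type, against 249, 467 and 1301 (log2 change 6.08 ± 0.79, limma adjusted p = 0.0012), and its WAGO-class 22G-RNAs were at 200.0 ± 19.6 in wild type, against 16.1 ± 9.11 in *prg-1* (log2 change -3.69, adjusted p = 8.4e-06). In all 3 genes *prg-1* replicate 3 was the highest library.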

How the data were processed

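RNA of distal gonads was sequenced in 3 libraries per genotype. Before deposit the authors used Trimmomatic 0.35 for trimming, STAR 2.5.0a for alignment to the WormBase WS230 genome and RSEM 1.3.0 for read estimates per gene. The deposited values are a normalized signal, called normalized reads by the authors. Division of read counts by 1 factor per library was inferred from steps in the values. DESeq2 1.18.1 is named for the authors' differential expression, but the scaling itself is not given in the sources used here. Between 57 and 79 in 100 positive mRNA values were whole multiples of 1 read, which gave implied depths. The precision of low genes is limited by these depths. Small RNA values of the gonad libraries were whole multiples throughout (100% of values), and a count test on the recovered reads (edgeR, without *prg-1* replicate 1, whose step is too close to 1) called 1401 features higher and 4081 lower of 8505, against 1228 and 3798 of 8031 by limma.

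From the values, log2(value + 1) was fitted with limma 3.58.1 in R 4.3.3 (edgeR 4.0.16 for scaling and counts), with all 9 gonad libraries, a mean-variance trend and robust moderation. A row was tested where it reached 10 in at least 3 of the 9 libraries, and a call was an adjusted p below 0.05 (Benjamini-Hochberg) with a fold of at least 1.3. Gene symbols, chromosomes and neighbours came from RefSeq tables of the assembly WBcel235, which matched 21435 of 22844 rows, and no coordinates were taken from them. The scripts were tested on simulated data. Members and gene lists were chosen with earlier results of these data known. Named genes were *prg-1*, *mut-16* and *csr-1*, the 12 largest called changes in each direction with a mean of at least 200 and no overlap, up to 4 called members a list with a mean of at least 50 and those going against it, the most abundant uncalled member a list, the 6 most abundant called mRNAs in each direction, and a few genes fixed by name, of which those the results turn on are described. Alternatives were other scalings, filters, pseudocounts, fold thresholds, a replicate block and each library left out. limma-voom and the joint omission of 2 libraries were chosen after seeing the data. Whole animal libraries and transposon family tables were not used here.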

Additional observations from a re-analysis of the deposited data

How the results depend on the processing

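The 2063 higher mRNAs became 934 with limma-voom on implied reads, where the MSP, other sperm family and spermatogenesis counts were 0, 4 and 4. With no fold threshold the lower mRNAs numbered 1817, the autosomal lower ones 1268 and those differing between *prg-1* and *mut-16* 2603, and with a threshold of 2-fold they numbered 368, 138 and 647, with 220 lower on X. With each library left out in turn, the ranges were 1766 to 2007 higher, 815 to 1021 lower, 1180 to 1973 differing between the mutants, 461 to 512 lower on X, 336 to 493 lower on autosomes, 27 to 30 MSP genes, 30 to 32 of the other sperm families, 21 to 25 spermatogenesis genes and 31 to 33 core histones. The log2 ratio of summed MSP mRNA ranged from 3.93 to 6.02 and that of core histone mRNA from -0.49 to -0.38. Without the filter on low values 2547 were higher and 945 lower. Values close to 0 changed sign without any call. They were those of *his-45* (-0.11 to 0.0029 with each library left out), *glp-1* (-0.045 to 0.00063), *hcp-3* (-0.087 to 0.016, and 0.0098 without wild type replicate 2 and *prg-1* replicate 3 together) and *htz-1* (-0.0063 to 0.15, -0.00067 with TMM scaling and -0.027 without both of those libraries). Other scalings moved the median log2 change of all genes by less than 0.1.

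Same-numbered wild type and *prg-1* libraries did not consistently deviate together (correlations 0.44, -0.16 and -0.41). The largest correlation, 0.59, was between wild type replicate 2 and *prg-1* replicate 3, both high in sperm mRNA. The check follows that shared deviation, so it cannot exclude a pairing by number. With a replicate block, 1986 mRNAs were higher and 917 lower, and the pairing check was made across genes.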
